A study of Homo sapiens with 8 samples.

Results

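The genes described here are 10 transcription factors of precursor B cells: PAX5, EBF1, TCF3, TCF4, FOXO1, IKZF1, IKZF3, BACH2, LEF1 and MYB. They were taken as a list by gene symbol from 27448 genes in the all-read table and 6993 genes in the converted-read table. The list was chosen with earlier results of these data known. All 10 were in the all-read table and 9 were in the converted-read table, where IKZF3 was not listed. Each gene was read from the transcript row with the highest mean among those to which the table gives a gene name. The row was picked separately in each table, and differed between the 2 tables for TCF4, BACH2, LEF1 and MYB. For TCF4 and IKZF1 a row without a name had a slightly higher all-read mean, 42.96 against 42.45 and 17.02 against 16.95 CPM.

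The RNA came from NALM6, a human cell line long established from precursor B-cell leukaemia and engineered with an HMGN1 gene that doxycycline switches on. HMGN1 is a small chromatin protein that binds nucleosomes, and its S20,24E mutant is deficient in that binding. The vehicle group was 3 libraries of the wild-type HMGN1 line given no doxycycline, the WT + dox group was 3 libraries of the same line given 100 ng/ml doxycycline, and the mutant + dox group was 2 libraries of the S20,24E line given 100 ng/ml doxycycline. Treatment lasted 6 h, and all 8 cultures received 4-thiouridine at 100 µM for the last 5 h. In SLAM-seq the incorporated 4-thiouridine is alkylated and then read as T-to-C conversions, so that a converted read marks RNA made during labelling. The mutant line given vehicle was not analysed here, so that in the comparison of mutant + dox with vehicle the line and the doxycycline cannot be told apart. Doxycycline and HMGN1 likewise cannot be told apart in the comparison of WT + dox with vehicle. The labels call the libraries biological replicates without naming separate cultures, and the p-values measure the spread between these libraries, which may be partly technical.

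Precursor B cells are specified by a small network of these factors. TCF3 and TCF4 are E proteins, basic helix-loop-helix factors that bind E-box sequences, and TCF3 acts early with FOXO1 to switch on EBF1. EBF1 and PAX5 then support each other's expression, and PAX5 holds the cell in the B lineage by activating B-cell genes and shutting off genes of other lineages. IKZF1 (Ikaros) and IKZF3 (Aiolos) are zinc finger regulators of lymphoid genes, BACH2 is a repressor that acts at the pre-B-cell checkpoint, LEF1 is a high-mobility-group factor of the Wnt pathway, and MYB keeps lymphoid progenitors in number. PAX5, EBF1 and IKZF1 are recurrently deleted or mutated in precursor B-cell leukaemia.

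Promoter sequences are given for 4 genes, chosen to set PAX5 and FOXO1, which had the largest differences from vehicle in converted reads, beside EBF1 and TCF3, which belong to the same network and differed less in that measure. Each is the 250 bases before the transcription start on the gene's own strand, from RefSeq with GRCh38.p14 coordinates, and capitals mark the E-box letters CANNTG, which the E proteins bind.
PAX5, chr9:37034269-37034518, minus strand: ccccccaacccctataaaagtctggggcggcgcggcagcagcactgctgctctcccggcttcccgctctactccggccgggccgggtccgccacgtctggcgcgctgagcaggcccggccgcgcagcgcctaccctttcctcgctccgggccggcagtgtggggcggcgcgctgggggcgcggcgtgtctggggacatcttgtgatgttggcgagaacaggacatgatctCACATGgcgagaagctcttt
FOXO1, chr13:40666642-40666891, minus strand: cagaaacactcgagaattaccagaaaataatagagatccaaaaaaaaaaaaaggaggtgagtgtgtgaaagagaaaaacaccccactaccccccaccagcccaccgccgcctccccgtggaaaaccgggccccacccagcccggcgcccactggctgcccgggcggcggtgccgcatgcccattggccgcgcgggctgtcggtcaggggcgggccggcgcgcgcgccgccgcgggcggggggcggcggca
EBF1, chr5:159097957-159098206, minus strand: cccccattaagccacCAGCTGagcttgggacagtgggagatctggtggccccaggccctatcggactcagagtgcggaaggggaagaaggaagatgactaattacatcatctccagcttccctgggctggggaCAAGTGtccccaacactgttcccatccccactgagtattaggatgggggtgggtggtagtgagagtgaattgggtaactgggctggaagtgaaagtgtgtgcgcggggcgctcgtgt
TCF3, chr19:1652616-1652865, minus strand: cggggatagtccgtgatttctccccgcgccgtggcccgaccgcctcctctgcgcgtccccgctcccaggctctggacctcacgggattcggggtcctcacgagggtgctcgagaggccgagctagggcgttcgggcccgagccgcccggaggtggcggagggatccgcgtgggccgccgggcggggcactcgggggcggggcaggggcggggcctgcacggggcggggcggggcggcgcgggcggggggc
The PAX5 window held 1 E-box and the EBF1 window held 2, while the FOXO1 and TCF3 windows held 0. Of 35116 RefSeq promoter windows of this length, 61.8% held at least 1. The forkhead letters GTAAACA were in none of the 4 windows on either strand, against 2.98% of all windows. TGGGAA, a core that Ikaros proteins bind, had 1 match in the EBF1 window, on the strand opposite to that printed, where it reads ttccca. Of all windows 20.8% held it on at least 1 strand. The share of G and C was 79.6% in the TCF3 window, 69.6% in PAX5, 67.2% in FOXO1 and 57.2% in EBF1. A match of letters is a description of the sequence and not a binding site.

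The depth behind the values ran from 7.99 M reads in WT + dox B to 17.7 M in vehicle C, and 3.41 M to 7.80 M of them fell in gene rows. HMGN1 itself, the induced gene, had all-read levels of 163 ± 24.4 CPM with vehicle, 262 ± 51.0 in WT + dox and 211 ± 16.7 in mutant + dox (SD, n = 3, 3 and 2). Both induced groups lay above vehicle without overlap, as did 2.53% of all genes in WT + dox and 4.57% in mutant + dox. The HMGN1 differences did not pass in limma (adjusted p = 0.991 and 0.99997). In converted reads HMGN1 had 4.71 ± 1.81 FPKM with vehicle, 6.03 ± 1.51 in WT + dox and 3.39 ± 1.08 in mutant + dox. Both induced groups overlapped with vehicle there, with log2 differences of 0.34 and -0.35 (limma adjusted p = 0.823 and 0.815). The conversion rate of HMGN1, the share of T bases read as C, was higher in both induced groups. It was 1.47% ± 0.370 with vehicle, 4.82% ± 2.04 in WT + dox and 3.32% ± 1.87 in mutant + dox. Neither induced group overlapped with vehicle in the rate, and 3.53% of all genes likewise lay above vehicle without overlap in WT + dox. The share of all genes in mutant + dox is not given here. The log2 differences were 1.39 and 0.89, without a pass (limma adjusted p = 0.901 and 0.99986). Its reads are uncertain where near-identical copies exist. Of 10 precursor B-cell markers, including CD79A, IGLL1 and RAG1, all were above 1 CPM in every library, and their summed level was 1684 to 1716 CPM with vehicle, 1471 to 1732 in WT + dox and 1377 to 1604 in mutant + dox. The T-cell markers CD3D and CD2 and the erythroid marker HBB were at 0 in 8 of 8 libraries. Of the 6 T-cell markers only GATA3 had a median of at least 1 CPM, and the list summed to 2.81 to 3.66 CPM with vehicle, 3.12 to 3.61 in WT + dox and 2.89 to 3.02 in mutant + dox. The 6 myeloid markers summed to 422 to 517 CPM with vehicle, 365 to 440 in WT + dox and 344 to 431 in mutant + dox, and CSF1R alone gave 338 to 512 of these. The 4 plasma cell markers summed to 22.2 to 31.8 CPM with vehicle, 22.5 to 38.0 in WT + dox and 29.4 to 32.2 in mutant + dox, and the 4 erythroid markers to at most 0.225. The part of these markers in the results below was not tested.

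All reads show how much RNA of each factor the cells held. TCF3 was the most abundant for its length, at 31.8 ± 2.98 CPM per kb of exon (SD over 8 libraries), and lay above LEF1, the next in order, in 8 of 8 libraries. LEF1 followed at 21.3 ± 6.43, MYB at 19.3 ± 5.54, TCF4 at 12.2 ± 3.84 and PAX5 at 11.8 ± 5.95 CPM per kb. These neighbours differed by less than their SD over libraries except for MYB and TCF4. Compared within each library, LEF1 lay above MYB in 7 of 8, MYB above TCF4 in 8 and TCF4 above PAX5 in 5. EBF1 stood at 7.02 ± 2.44, BACH2 at 4.32 ± 1.60, FOXO1 at 3.12 ± 0.840 and IKZF1 at 2.69 ± 0.848 CPM per kb. IKZF3 was far below the others at 0.0785 ± 0.0384 CPM per kb. Exon lengths are those of a GENCODE 29 transcript matched by accession, and those matched for MYB and TCF4 were short, at 1.82 and 3.48 kb, which raises their levels per kb of exon and leaves their places in this order uncertain. Per kb of gene span TCF3 also stood first, at 3.29 CPM per kb, with MYB next at 0.964 and LEF1 and PAX5 at 0.540 and 0.508. The others were ordered differently, with IKZF1 at 0.169, FOXO1 at 0.161, TCF4 at 0.117, BACH2 at 0.106 and EBF1 at 0.0912. IKZF3 was again last, at 0.00712. The counted region is unknown, so neither length is known to be the right divisor.

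IKZF3, a factor of later B-cell stages, was close to the floor of detection. It stood at 1.01, 0.347 and 0.732 CPM in vehicle A, B and C, at 0.695, 0.125 and 1.23 in WT + dox A, B and C, and at 1.06 and 0.862 in mutant + dox A and B. These values rest on 1 to 17 reads a library, with the single read in WT + dox B, and the 3 groups overlapped. Its mean of 0.758 CPM was under the minimum of 1 CPM for testing, so it had no test in limma. Its conversion rate, 0% to 9.93% by library, rests on the same few reads and is not read further.

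The all-read levels of the other 9 factors varied more between libraries than between groups. PAX5 stood at 35.5, 100.5 and 97.3 CPM in vehicle A, B and C, at 81.8, 74.5 and 199 in WT + dox A, B and C, and at 153 and 74.6 in mutant + dox A and B. Vehicle A was lowest and WT + dox C highest, and the induced groups overlapped with vehicle B and C. FOXO1 showed the same extremes, with 13.0, 13.98 and 16.4 CPM with vehicle, 17.7, 15.4 and 27.4 in WT + dox, and 22.7 and 16.4 in mutant + dox. EBF1 stood at 21.7, 35.1 and 40.7 CPM with vehicle, 37.7, 31.4 and 64.1 in WT + dox, and 38.5 and 25.7 in mutant + dox. TCF3 differed from these in being nearly level: it stood at 115, 154 and 153 CPM with vehicle, 146, 129 and 145 in WT + dox, and 144 in both mutant libraries. Relative to its own mean over the 8 libraries TCF3 ranged from 0.810 to 1.09, against 0.348 to 1.95 for PAX5.

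The remaining 5 factors shared the lowest and the highest library with PAX5. BACH2 stood at 18.8, 35.6 and 42.1 CPM with vehicle, 36.2, 28.9 and 65.0 in WT + dox, and 54.5 and 33.7 in mutant + dox. TCF4 ranged from 28.3 CPM in vehicle A to 70.9 in WT + dox C, and LEF1 from 37.3 to 97.2, MYB from 25.3 to 52.2 and IKZF1 from 8.999 to 26.9 between the same libraries. In all, vehicle A held the lowest value of 9 of 9 factors and WT + dox C the highest of 8 of 9, with vehicle B highest for TCF3. Of the 12435 genes tested, vehicle A was lowest for 45.7% and WT + dox C highest for 52.9%. Of the 2039 tested genes that span at least 100 kb of genome, these shares were 59.6% and 70.8%.

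**Figure D1:**
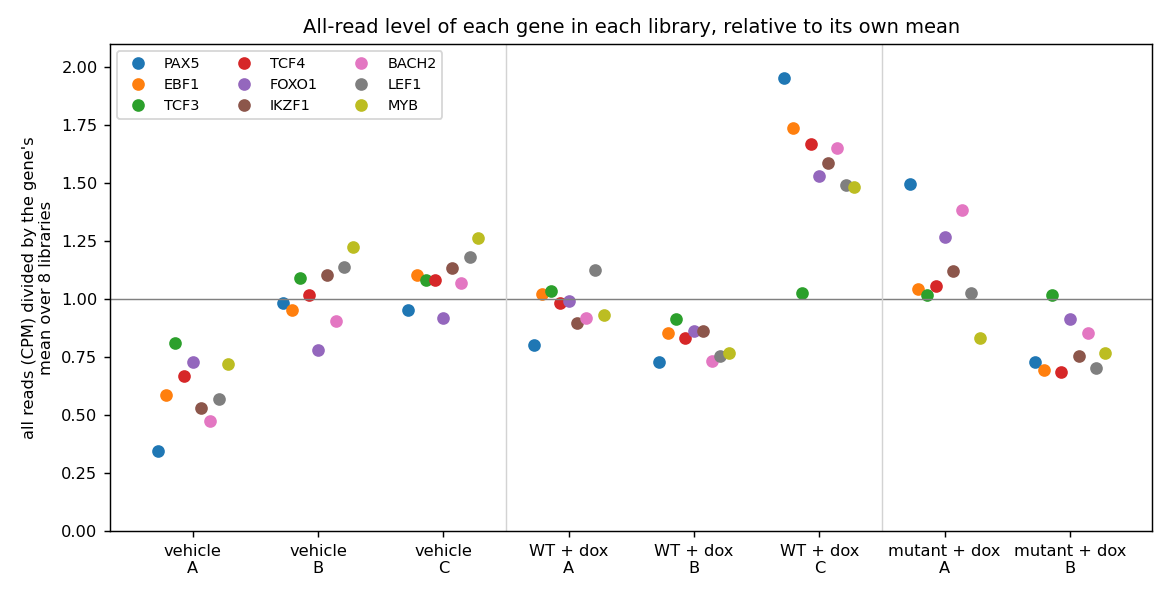
All-read level of 9 transcription factor genes in each of 8 libraries, as the CPM divided by the gene's own mean over the 8 libraries, with each colour a gene. Every gene is lowest in vehicle A, and every gene but TCF3 is highest in WT + dox C, while TCF3 stays close to 1 throughout.

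Of these 9 factors, 7 are long genes. EBF1 spans 404 kb, BACH2 370 kb, TCF4 361 kb, PAX5 201 kb, LEF1 121 kb, FOXO1 111 kb and IKZF1 100.4 kb in GENCODE 29, whereas TCF3 spans 43.0 kb and MYB 36.5 kb. Genes spanning at least 100 kb took 11.2%, 11.4% and 11.4% of gene CPM in vehicle A, B and C, 11.4%, 14.3% and 14.1% in WT + dox A, B and C, and 19.0% and 13.3% in mutant + dox A and B. The share was thus highest in mutant A, and fold changes with the trend on span removed are given below. The 13 transcript rows of PAX5, the 10 of EBF1 and the 16 of MYB held identical all-read values within each gene, so no isoform of these can be told from another.

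In all reads no factor passed in any comparison. For WT + dox against vehicle 8 of 9 had log2 fold changes above 0, with a median of 0.29 against 0.09 over all 12435 genes, and adjusted p from 0.991 to 0.996 (limma, Benjamini-Hochberg). For mutant + dox against vehicle 6 of 9 were above 0, with a median of 0.05 against -0.04 over all genes. For mutant + dox against WT + dox 3 of 9 were above 0, with a median of -0.21 against -0.12. The share of all genes passing was 0% in the first of these comparisons and 0.0322% in each of the other 2. At an unadjusted p under 0.05 none of the 9 factors counted, against 1.16%, 3.61% and 2.82% of all genes in the 3 comparisons in that order. No factor had groups that did not overlap, whereas 2.53% of all genes did so upward in WT + dox against vehicle and 4.57% in mutant + dox against vehicle. PAX5 had the largest difference from vehicle in both, 0.59 (SE 0.50) in WT + dox and 0.59 (SE 0.56) in mutant + dox, with 95% intervals of -0.54 to 1.72 and -0.67 to 1.86. These log2 fold changes are on the log2(CPM + 1) scale, which understates the change of low genes. On the whole reads recovered from the CPM values, edgeR and DESeq2 also called none of the factors.

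Converted reads show RNA made during the 5 h of labelling, and here PAX5 and FOXO1 lay above vehicle in every induced library, although neither difference passed the test. Of all genes tested, 10.7% lay above vehicle without overlap in WT + dox and 20.4% in mutant + dox. The share that did so in both was not counted. In bulk RNA a change in the cells that express a gene and a change in RNA per cell cannot be told apart. The FPKM of PAX5, the factor that maintains B-cell identity, was 13.1 in vehicle A, 28.6 in vehicle B and 26.4 in vehicle C, then 32.0, 57.5 and 67.9 in WT + dox A, B and C, and 103 and 57.6 in mutant + dox A and B. Its lowest induced value, in WT + dox A, lay above its highest vehicle value, in vehicle B. FOXO1, which acts upstream of EBF1 and of the RAG genes, stood at 3.13, 3.17 and 3.50 FPKM with vehicle, 6.23, 4.87 and 10.7 in WT + dox, and 11.6 and 9.11 in mutant + dox. All 5 induced libraries were again above all 3 vehicle libraries, and the vehicle libraries lay close together. The FOXO1 values equal about 6, 10 and 20 converted reads in vehicle A, B and C, from the smallest step between values. They equal about 28, 10 and 52 in WT + dox A, B and C, and 39 and 28 in mutant + dox. The closeness of the vehicle values and their gap from WT + dox B thus rest on few reads.

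PAX5 averaged 22.7 ± 8.40 FPKM with vehicle, 52.5 ± 18.5 in WT + dox and 80.4 ± 32.2 in mutant + dox (SD, n = 3, 3 and 2). The log2 fold change from vehicle was 1.79 (SE 0.46, 95% interval 0.79 to 2.79) in mutant + dox and 1.18 (SE 0.41, 0.29 to 2.07) in WT + dox, on the log2(FPKM + 1) scale. Neither passed over all genes tested (limma adjusted p = 0.211 and 0.618). FOXO1 averaged 3.27 ± 0.203, 7.25 ± 3.02 and 10.3 ± 1.74 FPKM. Its log2 fold change was 1.40 (SE 0.38, adjusted p = 0.211) in mutant + dox and 0.89 (SE 0.34, adjusted p = 0.618) in WT + dox. The 2 comparisons share the same 3 vehicle libraries, so that one does not repeat the other.

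BACH2 and TCF4 lay above vehicle in both mutant libraries, without passing the test. BACH2, a repressor in B cells, stood at 13.1, 15.5 and 20.7 FPKM with vehicle, 21.99, 19.5 and 33.2 in WT + dox, and 30.3 and 25.7 in mutant + dox. Both mutant values were above the 3 vehicle values, while WT + dox B lay under vehicle C (log2 fold changes 0.75 and 0.56, adjusted p = 0.464 and 0.702 for mutant and wild type). TCF4, an E protein, stood at 6.30, 5.71 and 14 FPKM with vehicle, 11.1, 14.6 and 22.6 in WT + dox, and 16.9 and 15.3 in mutant + dox. Vehicle C lay among the WT + dox values and below both mutant values. The TCF4 log2 fold changes were 0.92 for mutant and 0.87 for wild type (adjusted p = 0.435 and 0.664).

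EBF1 and IKZF1 had higher means in both induced groups than with vehicle, with overlapping values and no pass. EBF1, which opens B-lineage chromatin, stood at 12.6, 14.3 and 21.2 FPKM with vehicle, 21.1, 24.4 and 40.2 in WT + dox, and 25.2 and 15.3 in mutant + dox. Its log2 fold change was 0.78 (adjusted p = 0.664) in WT + dox and 0.32 (0.835) in mutant + dox. IKZF1 stood at 1.05, 3.49 and 2.46 FPKM with vehicle, 2.89, 3.90 and 5.34 in WT + dox, and 5.05 and 3.26 in mutant + dox, with log2 fold changes of 0.64 and 0.68 (adjusted p = 0.701 and 0.588). The IKZF1 value of vehicle A equals about 2 converted reads, from the smallest step between values in that library, and the PAX5 value there about 25. At that depth only large differences of IKZF1 would be detectable.

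TCF3, LEF1 and MYB overlapped with vehicle in both induced groups. TCF3, the E protein at the head of the network, stood at 13.1, 23.4 and 18.6 FPKM with vehicle, 19.5, 17.5 and 18.0 in WT + dox, and 19.55 in each mutant library. Its log2 fold changes were 0.03 and 0.12, with 95% intervals of -0.65 to 0.72 in WT + dox and -0.65 to 0.89 in mutant + dox, which leave room for changes in either direction. LEF1 stood at 4.71, 12.7 and 12.4 FPKM with vehicle, 8.47, 8.30 and 17.3 in WT + dox, and 11.6 and 5.84 in mutant + dox (log2 fold changes 0.20 and -0.13). MYB stood at 6.82, 6.66 and 9.45 FPKM with vehicle, 5.31, 9.29 and 11.1 in WT + dox, and 7.41 and 3.57 in mutant + dox (0.11 and -0.46). Their adjusted p ran from 0.742 for MYB in mutant + dox to 0.986 for TCF3 in WT + dox. The MYB rows differed in converted reads, with 8 distinct rows averaging as little as 3.55 FPKM, unlike its all-read rows. LEF1 had 3 distinct converted rows, the lowest averaging 7.28 FPKM against 10.2 for the row used.

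**Figure D2:**
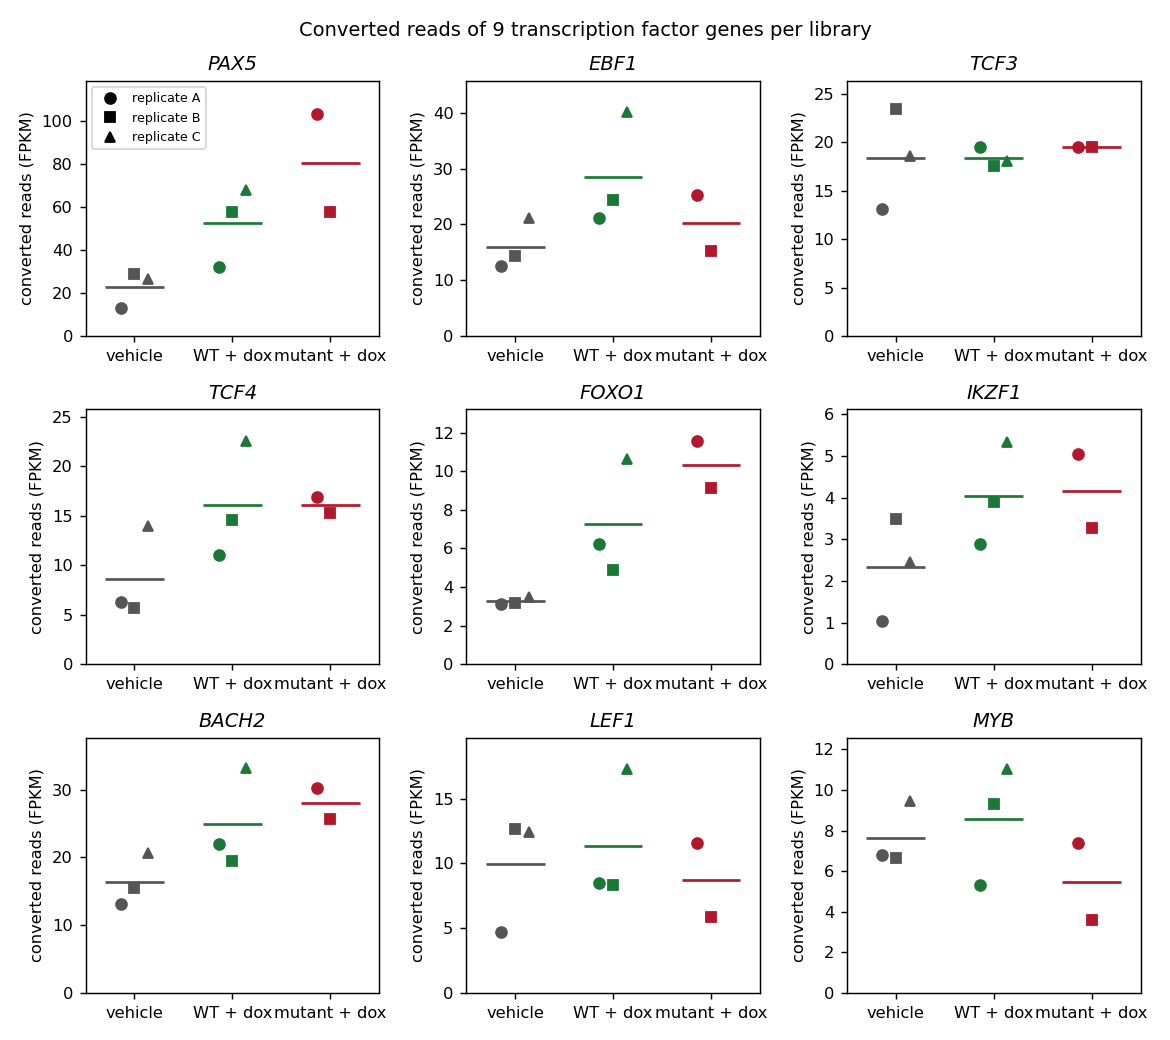
Converted reads in FPKM of 9 transcription factor genes, 1 panel per gene with its own axis from 0, with a point for each library (shape gives the replicate letter) and a line at the group mean. PAX5 and FOXO1 have all 5 induced libraries above the 3 vehicle libraries, whereas TCF3, LEF1 and MYB overlap across vehicle and the induced groups.

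Over the 9 factors, 0 passed in converted reads in any comparison. For mutant + dox against vehicle 7 of 9 had log2 fold changes above 0, with a median of 0.68 against 0.17 over all 5737 genes tested, where 62.9% were above 0. When each library was centred on its median the median of all genes moved from 0.17 to -0.10, and TCF3 turned from 0.12 to -0.15. For WT + dox against vehicle 9 of 9 were above 0, with a median of 0.64 against 0.23 over all genes, where 73.0% were above 0. Centring moved the median of all genes there from 0.23 to -0.11 and turned TCF3, LEF1 and MYB below 0 (-0.31, -0.13 and -0.23). In mutant + dox against vehicle 4 of 9 did not overlap and were higher (PAX5, FOXO1, BACH2 and TCF4), against 20.4% of all genes, and 0 were lower, against 7.81%. In WT + dox against vehicle 2 of 9 did so (PAX5 and FOXO1), against 10.7% of all genes. The share of all genes passing the adjusted threshold was 0% in each of the 3 comparisons in converted reads. At an unadjusted p under 0.05 there were 667 genes (11.6%) in mutant + dox against vehicle, among them PAX5 and FOXO1, and 419 (7.3%) in WT + dox against vehicle, among them PAX5, FOXO1 and TCF4.

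The PAX5 call in mutant + dox against vehicle depended on how the variance was modelled. With a mean-variance trend in limma, an alternative chosen after seeing the data, its adjusted p was 0.0445, and 23 of 5737 genes passed (0.401%). That count was 0 without mutant A or vehicle B, 1 without mutant B, 9 without WT + dox A, 35 without vehicle A and 68 without vehicle C. The PAX5 call was lost without mutant A (adjusted p = 0.879), mutant B (0.103), vehicle B (0.0815), WT + dox A (0.0585) or WT + dox B (0.0622). Without a trend the PAX5 log2 fold change was 1.38 with mutant A left out and 2.21 with mutant B left out, and 1.45 with vehicle A left out. FOXO1 had an adjusted p of 0.114 with the trend.

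Removing the trend of the values on gene span within each library lowered all 9 fold changes in each comparison with vehicle, and brought the median of all genes from 0.17 to -0.01 for mutant + dox and from 0.23 to -0.01 for WT + dox. For mutant + dox against vehicle PAX5 went from 1.79 to 1.12 (adjusted p = 0.3002, and 0.148 with the mean-variance trend) and FOXO1 from 1.40 to 0.86 (0.367). BACH2 went from 0.75 to -0.01, TCF4 from 0.92 to 0.16 and EBF1 from 0.32 to -0.45. For WT + dox against vehicle PAX5 went from 1.18 to 0.67 and FOXO1 from 0.89 to 0.46, and BACH2 was left at 0.02.

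**Figure D3:**
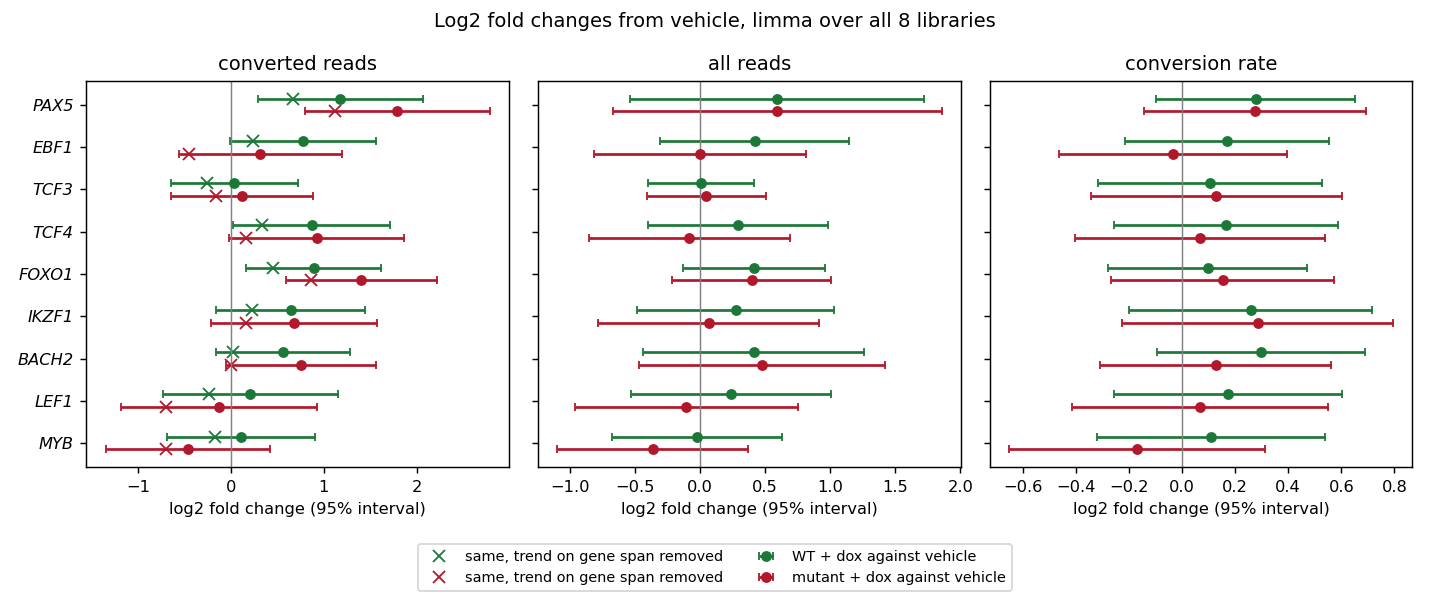
Log2 fold changes from vehicle of 9 genes in converted reads, all reads and the conversion rate, with points for the limma estimate and bars for its 95% interval (the axis ranges differ between panels), green for WT + dox and red for mutant + dox. Crosses in the first panel give the estimate after the trend on gene span was removed, and lie below the points for all 9 genes in both comparisons.

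Among the converted reads of these 9 factors PAX5 had its largest shares in the mutant libraries. Of their summed FPKM it held 17.7%, 25.2% and 20.5% in vehicle A, B and C, 24.9%, 36.0% and 30.02% in WT + dox A, B and C, and 44.7% and 37.1% in mutant + dox A and B. WT + dox A lay under vehicle B, and both mutant libraries lay above the other 6. In all reads its share of the summed CPM was 11.7% to 19.4% with vehicle, 16.9% to 26.6% in WT + dox and 18.2% to 26.7% in mutant + dox, and these ranges overlapped. The shares are not per length and describe changes within these sums only.

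The induced groups were not told apart in any factor. In converted reads the log2 fold changes of mutant + dox against WT + dox ran from -0.57 for MYB to 0.61 for PAX5, each with a limma adjusted p of 0.9998, and none had an unadjusted p under 0.05, against 2.81% of all genes. For PAX5 the 95% interval was -0.38 to 1.61 and for EBF1, at -0.46, it was -1.34 to 0.42. Only TCF3 had groups that did not overlap, 1 of 9 against 5.18% of all genes, and its mutant values of 19.55 FPKM exceeded the highest WT + dox value of 19.5 by very little. A p that misses the threshold does not show that the wild type and the mutant protein act alike.

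The conversion rate is the share of T bases read as C in the reads of a gene, and it is higher where more of the RNA is new. PAX5 had the highest rate of the factors, 9.68% ± 1.35 (SD over 8 libraries), above each of the other 8 well-covered factors in 8 of 8 libraries. It stood at 6.94%, 8.99% and 9.66% in vehicle A, B and C, at 10.0%, 10.0% and 11.1% in WT + dox A, B and C, and at 11.3% and 9.42% in mutant + dox A and B. Its mean over the 8 libraries was above that of 94.3% of the genes with at least 10 CPM, and in the vehicle libraries alone above 87.4%. FOXO1 followed at 7.45% ± 0.955, BACH2 at 7.23% ± 1.16, IKZF1 at 7.14% ± 1.42 and EBF1 at 6.83% ± 0.926. LEF1 (6.58%), TCF4 (6.41%), TCF3 (5.91%) and MYB (5.71%) were lowest. Neighbours in this order after PAX5 differed by less than their SD over libraries. Compared within each library, LEF1 lay above TCF4, and TCF4 above TCF3, in 7 of 8. FOXO1 lay above BACH2, and IKZF1 above EBF1, in 6 of 8, and EBF1 above LEF1 in 5 of 8. TCF3 lay above MYB in 4 of 8 libraries, and BACH2 above IKZF1 in 2 of 8 only.

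**Figure D4:**
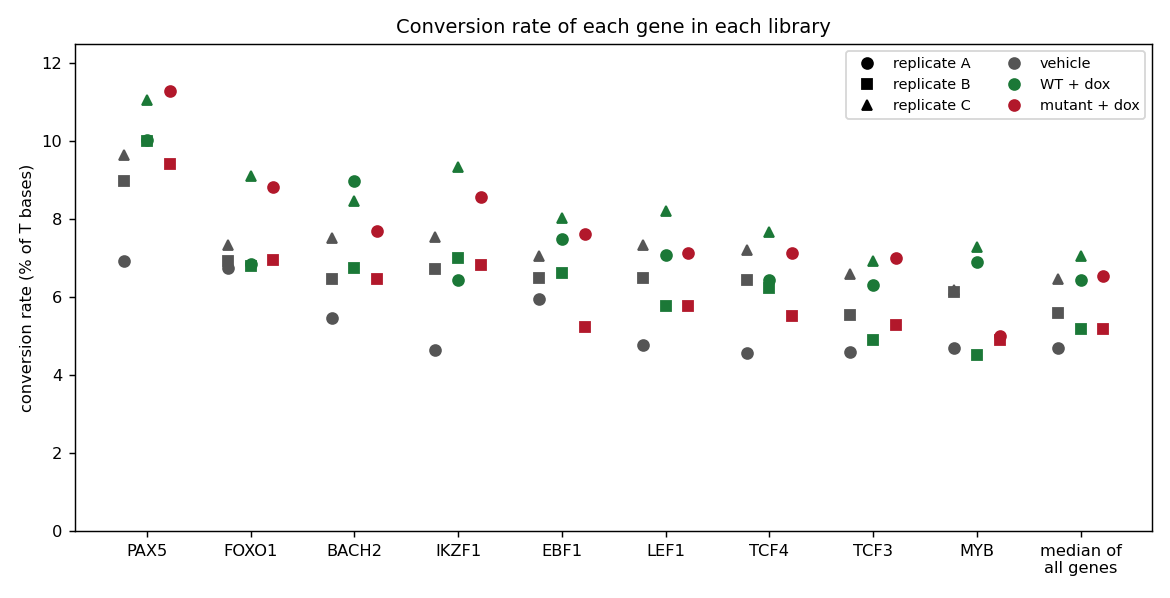
Conversion rate in percent of T bases of 9 genes in each library, coloured by group and shaped by replicate letter, with the median over 6254 genes at the right. PAX5 is the highest gene in every library, and vehicle A is low for most genes and for the median of all genes.

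Libraries also differed in the conversion rates of all genes. The median over 6254 genes was 4.70%, 5.60% and 6.47% in vehicle A, B and C, 6.44%, 5.19% and 7.06% in WT + dox A, B and C, and 6.55% and 5.20% in mutant + dox A and B. Vehicle A held the lowest rate of 7 of 9 factors and WT + dox C the highest of 6 of 9. No factor passed in any comparison of rates in limma, where the share of all genes passing was 0%. None had an unadjusted p under 0.05 either, against 1.25% of genes in WT + dox against vehicle, 1.44% in mutant + dox against vehicle and 0.576% between the induced groups. In WT + dox against vehicle 9 of 9 factors were above 0, as were 88.5% of all genes, and the median log2 fold change was 0.17 against 0.14. PAX5 alone had groups that did not overlap there, against 3.53% of all genes. Its difference was 0.28 on the log2 scale (SE 0.17) with a limma adjusted p of 0.901. In mutant + dox against vehicle 7 of 9 were above 0, PAX5 stood at 0.27 (adjusted p = 0.99986), and mutant B lay under vehicle C.

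Genes that these factors are known to regulate had no passing difference in converted reads, where 0% of all genes passed. Of 16 target genes of the B-cell programme, 13 were tested, 0 passed in either direction, and the median log2 fold change was 0.18 in WT + dox and -0.02 in mutant + dox, against 0.23 and 0.17 over all genes. DNTT, the terminal transferase of antigen receptor rearrangement, stood at 11.2 ± 2.45, 9.75 ± 2.56 and 6.52 ± 0.0141 FPKM with vehicle, in WT + dox and in mutant + dox (log2 fold change -0.68 for mutant against vehicle, limma adjusted p = 0.485). POU2AF1, a B-cell coactivator, stood at 3.79 ± 2.82, 4.84 ± 3.60 and 6.78 ± 1.75 (0.95, adjusted p = 0.650). The mutant libraries did not overlap with vehicle in either gene, being lower for DNTT and higher for POU2AF1, as were 7.81% and 20.4% of all genes. In all reads 15 targets were tested and 0 passed, against 0% to 0.0322% of all genes by comparison.

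Relatives and binding partners of the factors were mostly low in converted reads. Of 19 such genes 6 were tested there and 0 passed, as did 0% of all genes. Their medians against vehicle were -0.03 in WT + dox and 0.37 in mutant + dox, with 0.23 and 0.17 over all genes. In all reads 16 were tested and 0 passed, against 0% to 0.0322% of all genes by comparison. IKZF2 (Helios), a relative of IKZF1, stood at 1.65 ± 0.420 FPKM with vehicle, 1.85 ± 1.30 in WT + dox and 4.83 ± 0.537 in mutant + dox. Its log2 fold change for mutant against vehicle was 1.15 (adjusted p = 0.343). TCF12, the E protein partner of TCF3, stood at 4.95 ± 1.63, 8.91 ± 2.31 and 8.42 ± 3.62 FPKM (0.65, adjusted p = 0.604), and MYBL2, a cell-cycle relative of MYB, at 10.8 ± 7.42, 14.8 ± 3.58 and 14.2 ± 3.54 FPKM (0.64, adjusted p = 0.748).

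Among 24 other lymphoid factors 15 were tested in converted reads and 0 passed, against 0% of all genes. In mutant + dox against vehicle 13 of 15 were above 0, with a median of 0.24. Over all genes 62.9% were above 0 there, with a median of 0.17. In WT + dox against vehicle 11 of 15 were above 0 with a median of 0.37, against 73.0% and 0.23 over all genes. ARID3A, a B-cell DNA-binding factor, stood at 0.680 ± 0.701 FPKM with vehicle, 4.51 ± 1.26 in WT + dox and 7.11 ± 0.849 in mutant + dox. All 5 of its induced libraries lay above vehicle, where 10.7% of all genes did so without overlap in WT + dox and 20.4% in mutant + dox. The log2 fold changes were 1.78 (SE 0.37, limma adjusted p = 0.531) in WT + dox and 2.36 (SE 0.42, 0.0834) in mutant + dox. With the mean-variance trend the limma adjusted p for mutant against vehicle was 0.0290. As the steps between values were 0.175 to 0.524 FPKM in the vehicle libraries, the ARID3A values there rest on few converted reads. In all reads ARID3A stood at 3.20 ± 1.22, 6.67 ± 2.002 and 8.58 ± 2.87 CPM, and did not pass (0.991 and 0.668). POU2F2, an octamer-binding factor, stood at 2.03 ± 0.115 FPKM with vehicle, 1.91 ± 0.399 in WT + dox and 6.29 ± 2.45 in mutant + dox (1.22, adjusted p = 0.237). SPI1, an ETS factor of B and myeloid cells, stood at 1.71 ± 1.17, 2.33 ± 0.806 and 5.67 ± 2.04 FPKM (1.37, adjusted p = 0.270). Both mutant values of POU2F2 and SPI1 exceeded all 6 values of the wild-type line, where 20.4% of all genes did not overlap and were higher against vehicle and 5.18% against WT + dox. The difference from WT + dox did not pass (adjusted p = 0.9998 for each).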

How the data were processed

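Per the labels, 8 NALM6 libraries came from a kit for stranded mRNA and were read on an Illumina NextSeq. The authors deposited all reads per RefSeq transcript in columns named CPM per the file headers, used here as a signal in which every value was a whole read count times a step (100.0% within 0.1 read). They deposited the conversion as a fraction, 0 where no read was counted, and converted reads as FPKM. Within a library 77.0% to 86.8% of low FPKM values lay within 0.01 of multiples of a step, 0.175 to 0.524, common to all genes. In rows with 1 read, 35.0% to 47.2% of rates lay between 0% and 100%, so rates are per base. Build hg19 (GRCh37) comes from the submitters' processing notes. The aligner, caller, counted region and strand use (not given in the sources used here) are unknown, so overlapping genes and antisense partners cannot be told apart.

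A gene took the row with the highest mean among its rows named in the table, or, with none named, among those named through RefSeq (61177 all-read rows, 10032 converted). Missing symbols (25396 rows, 24846 named) came from RefSeq. Values were tested with limma 3.58.1 (R 4.3.3) on log2(FPKM + 1) and log2(CPM + 1), means of at least 1, and log2(conversion in percent + 0.5), at least 10 CPM. All 8 libraries entered a single model without covariates, with Benjamini-Hochberg adjustment over all genes tested and a threshold of 0.05. Spans came from GENCODE 29, lengths only. Alternatives on recovered counts used edgeR 4.0.16 and DESeq2 1.42.0. The models were tested on simulated data with noise drawn independently for each gene. Shifts shared by many genes of a library were not simulated, so that test cannot show how the models handle them. Named genes were the 10 factors and, per list, genes that passed plus the 3 with the smallest p. One gene that this rule names is not reported here. The members, lists and tests were chosen with earlier results of these data known.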

Additional observations from a re-analysis of the deposited data

How the results depend on the processing

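Without a mean-variance trend, 0 of the 9 factors passed under all 171 combinations of measure, comparison and alternative. With the trend, in converted reads of mutant + dox against vehicle, 1 passed (PAX5), and 3 did when the replicate letter was also a block (PAX5, FOXO1 and TCF4, adjusted p = 0.0143, 0.0345 and 0.0444). Leaving out 1 library under the trend gave 0 to 1. Same-letter correlations of deviations in all reads between vehicle and WT + dox were 0.287, -0.356 and 0.649 for A, B and C. In converted reads they were 0.104, -0.102 and 0.287, and in conversion rates 0.0239, 0.109 and 0.313. As deviations from means of only 3 libraries, these values cannot decide whether the replicate letters pair the libraries. With the block alone PAX5 had an adjusted p of 0.0823. As no factor was called as reported, no call could be lost. Of 2421 values under the alternatives, 232 had the other sign and were called in neither. A mutant library left alone was assumed to vary like the other groups.

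Counts over all genes moved more. In converted reads of mutant + dox against vehicle they were 0 as reported, 13 with depth as a covariate, 3 at a mean of at least 5 FPKM, 11 after centring on the median, 21 after quantile normalization, 1 with a pseudocount of 0.1, 23 with the trend, 11 with the trend and span removed, and 149 with the trend and block. In all reads they were 4 in mutant + dox against vehicle, against 57 in DESeq2, 5 in edgeR, 2 with the depth covariate or the block, 0 with only the 2 groups and 0 to 4 with 1 library left out. In mutant + dox against WT + dox they were 4, against 12 in DESeq2, 1 with no filter and 2 with the depth covariate. In WT + dox against vehicle they were 0, against 2 in edgeR, in DESeq2 and after removing the span trend. In conversion rates they were 0, against 2 with the trend in either comparison with vehicle, and 7 and 19 with the trend and block for wild type and mutant. Averaging all transcript rows moved 4 of 87 group values by over 1 SD. The cause was not tested. Depth limits IKZF3 and IKZF1 most.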
